A study of Mus musculus with 2 samples.

Results

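Integrin chains are the part of the T cell surface that decides which vessel wall and which matrix a cell can hold on to. Of 16830 genes in the deposited table, 10 encode integrin chains of lymphocytes and were taken by their symbols, 5 α-chains (*Itga4*, *Itga6*, *Itgae*, *Itgal*, *Itgav*) and 5 β-chains (*Itgb1*, *Itgb2*, *Itgb3*, *Itgb7*, *Itgb8*). All 10 were listed in both libraries with a mean of at least 1 FPKM (fragments per kilobase of transcript, scaled to the mapped fragments of the library), so none was lost to the filter on low values. RNA came from CD4+CD25hiYFP+ Treg cells, sorted from spleen and lymph nodes of C57BL/6 mice labelled as 6 months old. WT Treg cells came from Foxp3-YFP-Cre mice, and USP21-ΔTreg cells from mice that carried Foxp3-YFP-Cre together with floxed *Usp21* alleles (USP21-floxp/floxp). Cre and YFP are expressed from *Foxp3* in both genotypes, and whether the number of Cre copies was the same is not given in the sources used here. There was 1 library per genotype, with no statement of how many mice it held. No test was therefore possible, and what follows compares these libraries, not replicated genotypes. In bulk RNA, fewer cells of a type and less RNA per cell cannot be told apart.

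An integrin is a heterodimer of 1 α-chain and 1 β-chain, and neither chain reaches the surface without a partner. In lymphocytes, αL with β2 forms LFA-1, which binds ICAMs on endothelium and antigen-presenting cells. The α4-chain pairs with β1 to bind VCAM-1 and fibronectin, or with β7 to bind MAdCAM-1 on gut vessels. The αE-chain (CD103) pairs with β7 and binds E-cadherin on epithelium, α6 pairs with β1 and binds laminin, and αv pairs with β1, β3 or β8. On Treg cells, αv with β8 is known for releasing active TGF-β from its latent complex. Chemokine and antigen receptors switch integrins to their binding state through the GTPase Rap1 and the adaptors talin and kindlin.

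The largest differences lay in the chains of the VCAM-1 receptor and in the TGF-β-activating chain, in opposite directions. *Itga4* and *Itgb1* had FPKM ratios above 2 in USP21-ΔTreg over WT Treg cells, and *Itgb8* was the lowest of the 10 at a ratio of 0.514. The promoters of *Itga4* and *Itgb1* are shown because both genes were at least 2-fold higher on FPKM. They are the 250 bases before the gene start on the plus strand, from RefSeq on GRCm38.p6, at chr2:79255176-79255425 and chr8:128685404-128685653.
Itga4: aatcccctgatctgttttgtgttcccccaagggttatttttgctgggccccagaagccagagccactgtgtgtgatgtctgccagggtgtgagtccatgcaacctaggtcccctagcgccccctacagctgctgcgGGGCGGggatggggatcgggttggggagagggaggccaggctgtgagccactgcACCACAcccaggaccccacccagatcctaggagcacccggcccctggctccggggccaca
Itgb1: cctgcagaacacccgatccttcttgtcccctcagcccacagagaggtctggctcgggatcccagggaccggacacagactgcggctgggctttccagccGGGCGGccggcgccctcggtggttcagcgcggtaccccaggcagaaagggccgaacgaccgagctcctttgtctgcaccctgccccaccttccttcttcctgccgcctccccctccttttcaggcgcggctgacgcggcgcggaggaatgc
Capitals mark matches to 6 motifs searched on both strands, which did not overlap each other in these windows. The letters TGTGGT stood for the RUNX motif and TGTTTAC for the forkhead motif. The ETS motif was searched as CGGAAG and the STAT motif as TTCNNNGAA. For the GC box the letters were GGGCGG, and for the TATA box TATAAA. In *Itga4* the capitals are a GC box starting at -114 and a RUNX match, on the reverse strand, starting at -60, counted in bases from the gene start. In *Itgb1* they are a GC box starting at -151. Of 32851 promoter windows of this length, 32.7% held the GC box and 14.0% the RUNX motif, and the shares for forkhead, ETS, STAT and TATA were 3.17%, 13.6%, 7.02% and 12.4%. RefSeq windows were matched for 5 of the 10 genes. Those of *Itgb7* and *Itgb8* held none of the 6 motifs, and that of *Itgav* held 1 ETS match. These matches describe letters and not binding sites.

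The libraries held 23198432 fragments in genes for WT Treg cells and 23418573 for USP21-ΔTreg cells, and each integrin gene had between 937 and 25036 of them. *Usp21* stood at 11.8 FPKM in the WT library and 4.56 FPKM in the USP21-ΔTreg library, and *Foxp3* at 91.8 and 55.2 FPKM. The deposited gene total includes parts of *Usp21* outside any deleted exons, so it does not measure the deletion itself. *Il2ra*, which encodes the CD25 used in the sort, stood at 168 and 19.3 FPKM. The library labelled CD25hi with *Usp21* deleted thus held less *Il2ra* RNA than the WT library. The gate was set on CD25 protein, which RNA does not measure. Of 9 T and Treg cell markers, 6 were higher in the USP21-ΔTreg library by FPKM and 4 by scaled counts. Of all genes with a mean of at least 1 FPKM, 63.4% and 49.4% were higher on these scales. The list summed to 2367 and 2188 FPKM. Its most abundant marker, *Tnfrsf18*, which encodes GITR, stood at 833 FPKM in the WT library against 318 FPKM in the USP21-ΔTreg library (log2 fold change -1.39). By contrast, *Cd3d* (137 and 211 FPKM), *Cd3e* (79.3 and 131), *Cd3g* (222 and 497) and *Cd4* (133 and 204) were higher on both scales. *Ctla4* (516 and 532 FPKM) and *Ikzf2* (186 and 220) were higher on FPKM and lower on scaled counts. Markers of other cells were low but mostly higher in the USP21-ΔTreg library. On FPKM all 8 B cell markers were higher (sum 11.8 and 28.8 FPKM, the highest being *Cd79b*), as were all 10 NK and CD8 T cell markers (25.1 and 64.7 FPKM, *Nkg7*) and 11 of 13 myeloid markers (34.3 and 63.3 FPKM, *S100a8*). By scaled counts 7 B cell, 10 NK and CD8 T cell and 10 myeloid markers were higher. None of the B cell, NK and CD8 T cell or myeloid markers was at 0 in either library. Their part in the integrin values was not tested. Platelet markers summed to 1.63 and 2.20 FPKM, erythroid markers to 5.92 and 2.33 FPKM (*Hbb-b1*) and stromal and endothelial markers to 28.4 and 40.7 FPKM, of which *Pecam1* made up most. *Pf4* and *Ppbp* were listed at 0 in WT Treg cells, and *Madcam1* and *Cdh5* in USP21-ΔTreg cells.

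For each gene 0.1 was added to both FPKM values, and the USP21-ΔTreg value was divided by the WT value and put on the log2 scale. A difference of at least 2-fold, the fold limit of the study, was the limit for a count of genes. The table also gives fragment counts scaled between the libraries, and their ratio, with a 95% Clopper-Pearson interval that covers counting error only, is given beside each FPKM value. The 2 scales did not share a centre. Over the 10948 genes with a mean of at least 1 FPKM, the median log2 fold change was 0.20 on FPKM and -0.01 on scaled counts. The share of genes at least 2-fold higher was 7.78% on FPKM and 4.34% on scaled counts, and the share at least 2-fold lower was 6.2% and 7.93%. With FPKM fold changes centred on their median, 488 genes were at least 2-fold higher and 913 lower, against 852 and 679 as deposited. Of the 10 integrin chain genes, 2 were past 2-fold upwards and 0 downwards on FPKM, and on scaled counts 1 was higher and 1 lower. Their median log2 fold change was 0.34 on FPKM and 0.30 on scaled counts. On scaled counts the interval lay above 1 for 6 genes (*Itga4*, *Itgb1*, *Itgae*, *Itgal*, *Itgb7*, *Itgb2*) and below 1 for 4 (*Itgb8*, *Itgb3*, *Itga6*, *Itgav*). Of all genes kept, the interval lay above 1 for 35.9% and below 1 for 38.8%, so most genes had an interval to one side of 1.

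**Figure D1:**
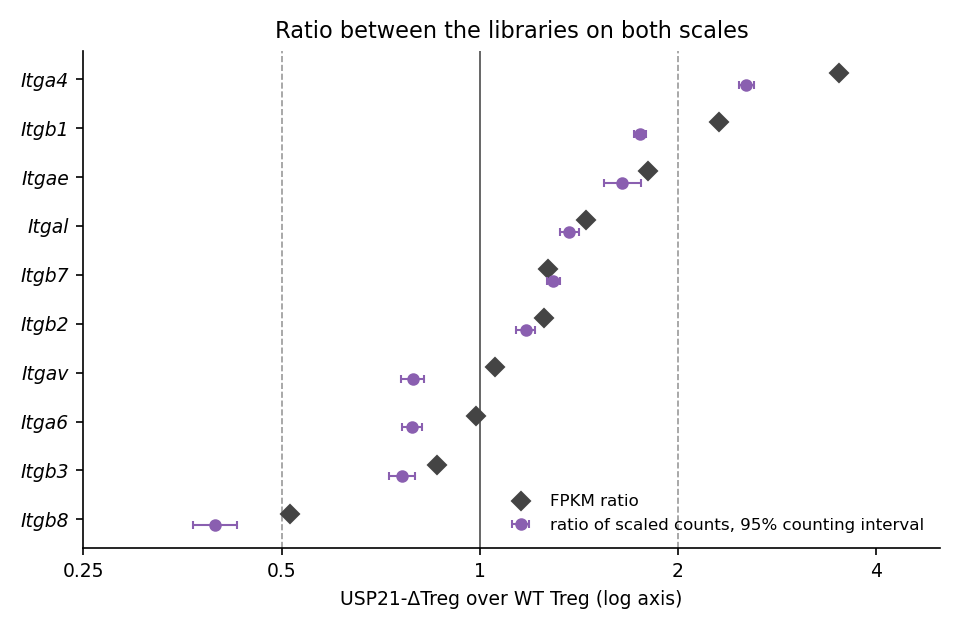
Ratio of USP21-ΔTreg to WT Treg for each integrin chain gene on a log axis, with diamonds for FPKM and circles for scaled counts with 95% counting intervals. Dashed lines mark 2-fold. *Itga4* lay above 2 on both scales, *Itgb1* on FPKM only, and *Itgb8* lay below 0.5 on scaled counts only.

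*Itga4*, which encodes the α4-chain shared by the receptors for VCAM-1 and MAdCAM-1, stood at 26.2 FPKM in the WT library and 92.1 FPKM in the USP21-ΔTreg library. The FPKM ratio was 3.51, a log2 fold change of 1.81, which 0.877% of the genes kept exceeded. On scaled counts 1.80% of the genes kept had a higher fold change. The gene had 7235 WT and 20623 USP21-ΔTreg fragments, and the ratio of scaled counts was 2.54 (95% interval 2.47 to 2.61). Its difference was thus at least 2-fold on either scale, and it stayed so in all 10 alternatives. Those that change only the filter on mean FPKM leave the fold change of a gene as it was. *Itga4* (Entrez gene 16401) lies on the plus strand of chromosome 2 of mm10 from 79255426 to 79333123. Its end overlaps *Cerkl*, a ceramide kinase-like gene on the minus strand that stood at 1.58 and 3.58 FPKM with 66 and 148 fragments. Whether strand was used in counting is not given in the sources used here. The part of the overlap in the *Itga4* values was not tested.

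The partners of the α4-chain were higher to unequal degrees. *Itgb1*, the β1-chain common to the matrix-binding integrins, stood at 114 FPKM in the WT library and 264 FPKM in the USP21-ΔTreg library. Its FPKM ratio was 2.31 (log2 fold change 1.21), while its ratio of scaled counts, from 12740 and 25036 fragments, was 1.75 (95% interval 1.72 to 1.79), short of 2-fold. *Itgb7*, the β7-chain of gut-homing integrins, stood at 226 FPKM in the WT library and 287 FPKM in the USP21-ΔTreg library, a log2 fold change of 0.35 and a ratio of scaled counts of 1.29 (95% interval 1.26 to 1.33). It was the highest of the 10 genes in both libraries. Within WT Treg cells the FPKM of *Itgb1* was 0.507 times that of *Itgb7*, and within USP21-ΔTreg cells 0.922 times. A factor common to all genes of a library cancels in such a ratio of 2 chains, but the FPKM and count values still differed. The ratio was 1.82 times larger in USP21-ΔTreg cells on FPKM and 1.35 times on scaled counts (95% interval 1.31 to 1.40, counting error only). The FPKM of *Itga4* was 0.229 times that of *Itgb1* in WT Treg and 0.349 times in USP21-ΔTreg cells. Against *Itgb7* it was 0.116 times and 0.321 times. In both libraries the α4-chain RNA therefore stood below that of either β partner.

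*Itgae*, which encodes the αE-chain CD103 and also pairs with β7, stood at 14.7 FPKM in the WT library and 26.5 FPKM in the USP21-ΔTreg library. The log2 fold change was 0.85 on FPKM, and the ratio of scaled counts was 1.65 (95% interval 1.55 to 1.76), from 1484 and 2741 fragments. It stayed short of 2-fold on either scale. *Haspin*, which encodes a histone kinase on the minus strand inside *Itgae*, stood at 3.42 and 5.91 FPKM. Of the α-chains of β7, *Itga4* exceeded *Itgae* 1.79 times in FPKM in WT Treg and 3.48 times in USP21-ΔTreg cells, a gap that was 1.95 times wider on FPKM and 1.54 times wider on scaled counts (95% interval 1.44 to 1.65).

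The chains of LFA-1 differed less. *Itgal*, the αL-chain CD11a, stood at 43.5 FPKM in the WT library and 63.1 FPKM in the USP21-ΔTreg library (log2 fold change 0.53), with a ratio of scaled counts of 1.37 (95% interval 1.32 to 1.42). *Itgb2*, the β2-chain CD18, stood at 88.4 and 111 FPKM (0.33), with a ratio of scaled counts of 1.17 (95% interval 1.14 to 1.22). The FPKM of *Itgal* was 0.493 times that of *Itgb2* in WT Treg and 0.570 times in USP21-ΔTreg cells, so the balance of the pair moved by much less than that of *Itga4* against *Itgb7*.

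**Figure D2:**
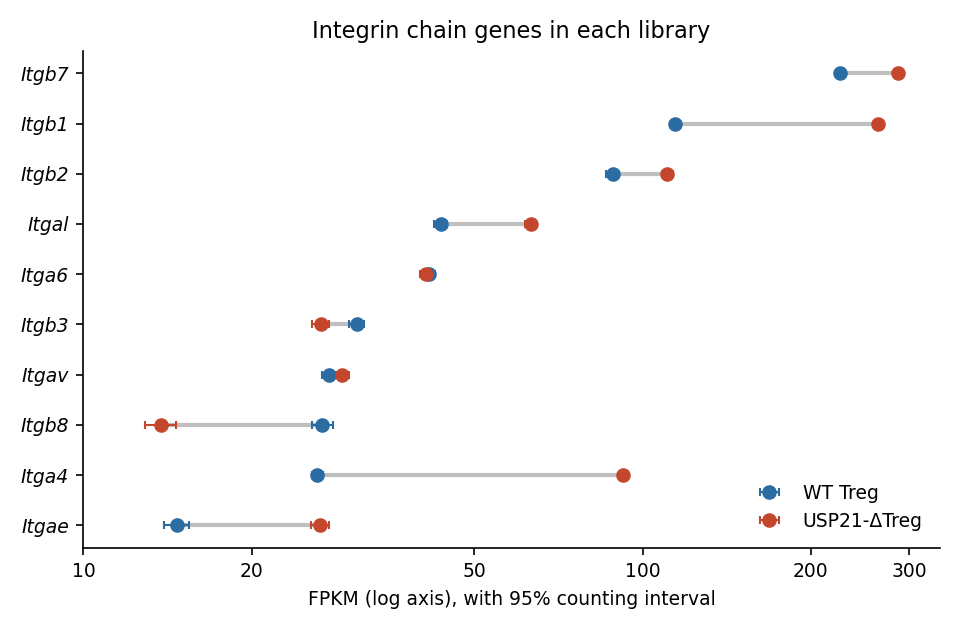
FPKM of each integrin chain gene in WT Treg cells (blue) and USP21-ΔTreg cells (red) on a log axis, ordered by the WT level, with 95% counting intervals. *Itga4* went from 26.2 to 92.1 FPKM and *Itgb8* from 26.8 to 13.8 FPKM, so genes that were alike in WT Treg cells stood far apart in USP21-ΔTreg cells.

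*Itga6*, the α6-chain of a laminin receptor, stood at 41.6 FPKM in the WT library and 41.1 FPKM in the USP21-ΔTreg library. Its log2 fold change was -0.02 on FPKM and -0.34 on scaled counts, the latter a ratio of 0.788 (95% interval 0.761 to 0.817). *Itgav*, the αv-chain, stood at 27.5 and 29.0 FPKM, with log2 fold changes of 0.08 on FPKM and -0.34 on scaled counts. For *Itgav* the sign therefore depended on the scale, and no direction can be given. The α6-chain and α4-chain, both partners of β1, changed places. The FPKM of *Itga4* was 0.630 times that of *Itga6* in WT Treg and 2.24 times in USP21-ΔTreg cells. This ratio was 3.56 times larger in USP21-ΔTreg cells on FPKM and 3.22 times on scaled counts (95% interval 3.08 to 3.37).

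Both *Itgb8* and *Itgb3*, which encode partners of αv, were lower in USP21-ΔTreg cells, *Itgb8* more so. *Itgb8*, which encodes the β8-chain, stood at 26.8 FPKM in the WT library and 13.8 FPKM in the USP21-ΔTreg library, with 2107 and 937 fragments. The log2 fold change was -0.95 on FPKM, just short of 2-fold. The ratio of scaled counts was 0.397 (95% interval 0.367 to 0.428), past 2-fold. On FPKM 6.63% of the genes kept had a lower fold change, and on scaled counts 4.78%. *Itgb3*, the β3-chain, which platelets and myeloid cells also carry, stood at 30.8 FPKM in the WT library and 26.6 FPKM in the USP21-ΔTreg library, a log2 fold change of -0.21 and a ratio of scaled counts of 0.761 (95% interval 0.727 to 0.797). *Itga2b*, the platelet partner of β3, stood at 0.867 and 1.01 FPKM. The FPKM of *Itgb8* was 0.869 times that of *Itgb3* in WT Treg and 0.518 times in USP21-ΔTreg cells, a factor of 0.596 between the libraries, against 0.521 on scaled counts (95% interval 0.476 to 0.569). The FPKM of *Itgav* was close to that of *Itgb8* in WT Treg cells, at a ratio of 1.03, and 2.11 times that of *Itgb8* in USP21-ΔTreg cells.

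**Figure D3:**
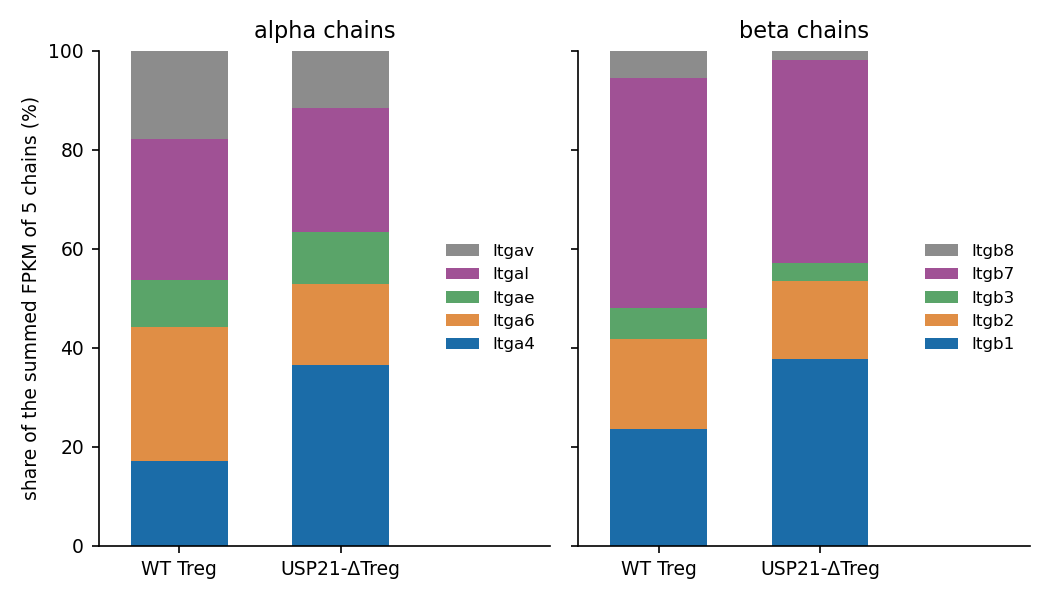
Share of each gene in the summed FPKM of the 5 α-chains (left) and of the 5 β-chains (right) in each library, in percent. *Itga4* made up 17.1% of α-chain FPKM in WT Treg and 36.6% in USP21-ΔTreg cells, and *Itgb1* 23.5% and 37.6% of β-chain FPKM.

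Summed over the 5 genes, α-chain FPKM was 154 in WT Treg and 252 in USP21-ΔTreg cells, and β-chain FPKM was 486 and 702. The ratio of the sums was 1.64 for α-chains and 1.44 for β-chains, and on scaled counts 1.46 and 1.32. Most of the shift in makeup lay in *Itga4*, whose share of the α-chain sum went from 17.1% to 36.6%, while that of *Itga6* went from 27.1% to 16.3%. *Itgal* held 28.4% of the α-chain sum in WT Treg and 25.1% in USP21-ΔTreg cells, and *Itgae* 9.56% and 10.5%. Among β-chains the share of *Itgb1* went from 23.5% to 37.6%, that of *Itgb7* from 46.4% to 40.8%, and that of *Itgb8* from 5.51% to 1.96%.

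By FPKM the order in WT Treg cells was *Itgb7*, *Itgb1*, *Itgb2*, *Itgal*, *Itga6*, *Itgb3*, *Itgav*, *Itgb8*, *Itga4* and *Itgae*. For *Itgav* over *Itgb8* the ratio of levels was 1.03 (95% interval 0.977 to 1.08), and for *Itgb8* over *Itga4* it was 1.02 (0.972 to 1.07), so neither pair differed beyond counting error. All other neighbours did, the closest being *Itgal* over *Itga6* at 1.05 (1.01 to 1.09). In USP21-ΔTreg cells the order was *Itgb7*, *Itgb1*, *Itgb2*, *Itga4*, *Itgal*, *Itga6*, *Itgav*, *Itgb3*, *Itgae* and *Itgb8*. There *Itgb3* over *Itgae*, at 1.00 (95% interval 0.955 to 1.06), was the one pair of neighbours whose interval held 1. *Itga4* thus moved from rank 9 to rank 4, and *Itgb8* from rank 8 to rank 10.

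**Figure D4:**
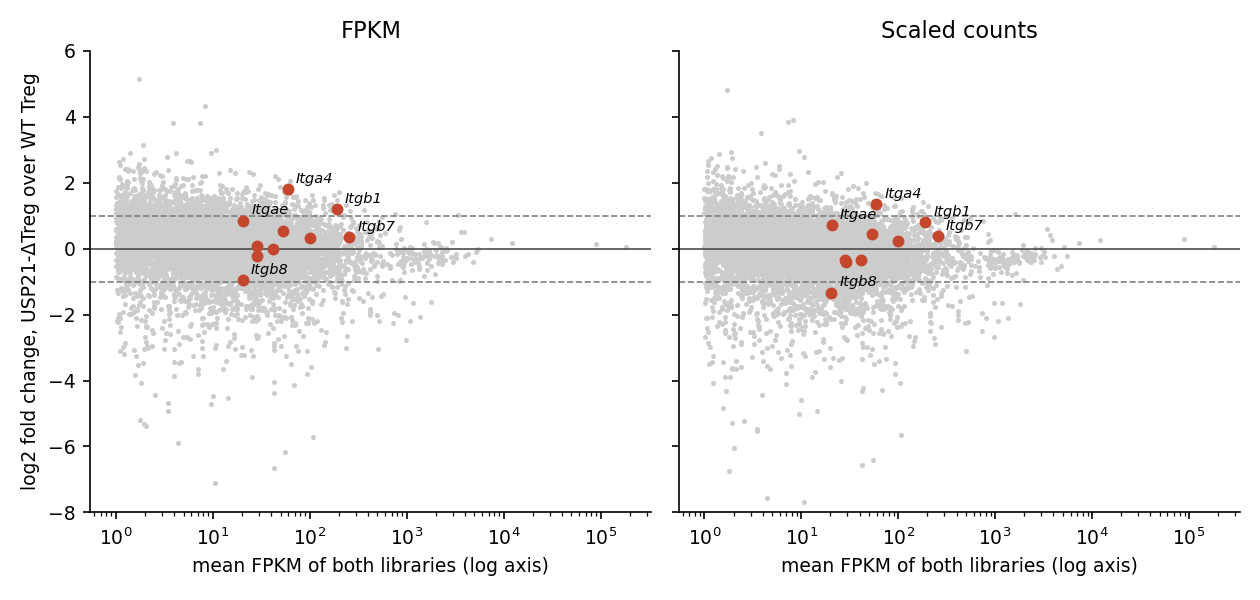
Log2 fold change against mean FPKM for the 10948 genes kept (grey) and the 10 integrin chain genes (red, 5 of them named), on FPKM (left) and scaled counts (right). Dashed lines mark 2-fold. *Itga4* lies at 1.81 and 1.35 and *Itgb8* at -0.95 and -1.33.

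Of 16 other integrin chain genes in the table, 4 had a mean of at least 1 FPKM. *Itga7*, an α-chain that pairs with β1 and binds laminin in muscle, was the highest of them and was lower in USP21-ΔTreg cells, at 26.0 and 9.69 FPKM (log2 fold change -1.42, ratio of scaled counts 0.371). *Itga2*, the α-chain of a collagen receptor, was higher at 0.741 and 2.42 FPKM (1.58). *Itgb5*, another partner of αv, was higher at 1.43 and 3.43 FPKM (1.21), and *Itga3* stood at 1.35 and 1.91 FPKM. *Itga2*, *Itga7* and *Itgb5* were past 2-fold on scaled counts as well. Over all genes kept, 7.78% were at least 2-fold higher and 6.2% lower on FPKM, and 4.34% and 7.93% on scaled counts. *Itga2* and *Itgb5* were low, with 89 and 96 fragments in the WT library. With 1 FPKM added, 0 of these chains were at least 2-fold higher. The remaining 12, among them *Itgam* and *Itgax* of myeloid cells, had a mean under 1 FPKM.

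Inside-out activation is the switch of integrins to their binding state from within the cell. Of 18 genes of it, 16 were measured, and none was at least 2-fold apart on either scale. Their median log2 fold change was 0.38 on FPKM and 0.27 on scaled counts. Over all genes kept, 7.78% were at least 2-fold higher and 6.2% lower on FPKM, with a median of 0.20. On scaled counts these shares were 4.34% and 7.93%, with a median of -0.01. The same shares stand beside the counts of the lists that follow. *Rap1b*, a Rap1 GTPase, stood at 136 and 224 FPKM with log2 fold changes of 0.71 on FPKM and 0.25 on scaled counts. *Stk4*, the kinase MST1 that acts with RASSF5 downstream of Rap1, stood at 78.2 and 155 FPKM (0.99 and 0.71), just short of 2-fold. *Tln1* (talin-1) stood at 80.0 and 95.3 FPKM and *Fermt3* (kindlin-3) at 102 and 91.1 FPKM, and these names were chosen after their values were seen. Of 9 genes that restrain activation 8 were measured and none was at least 2-fold apart on either scale. *Flna*, whose product filamin A competes with talin for β tails, stood at 89.2 and 130 FPKM, and *Cytip*, which encodes a cytohesin-binding protein that limits LFA-1 adhesion, at 146 and 150 FPKM.

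Of 20 genes of the adhesion complex 18 were measured. On FPKM 1 was at least 2-fold higher and 2 were lower, against 7.78% and 6.2% of all genes kept. *Bcar1*, which encodes the docking protein p130Cas, stood at 6.82 FPKM in the WT library and 0.130 FPKM in the USP21-ΔTreg library, or 410 and 9 fragments (log2 fold change -4.91). *Ptk2*, which encodes focal adhesion kinase, stood at 2.65 and 1.12 FPKM (-1.17). *Lims1*, which encodes the PINCH adaptor of integrin-linked kinase, stood at 31.3 and 63.2 FPKM (1.01) but was short of 2-fold on scaled counts (0.49). The median of the list was 0.14 on FPKM and -0.01 on scaled counts. The most abundant members, the actin regulator *Vasp* and the LIM protein gene *Tes*, had log2 fold changes of -0.19 and -0.48 on FPKM.

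Among 11 membrane partners of integrins, all measured, 1 was at least 2-fold higher and 1 lower on FPKM. The shares over all genes kept were 7.78% and 6.2%. The tetraspanin *Cd9* stood at 36.4 and 107 FPKM (log2 fold change 1.56), and *Bsg*, which encodes CD147, at 272 and 95.5 FPKM (-1.51). On scaled counts *Cd47*, which encodes a receptor that associates with αv with β3, was also past 2-fold, at a ratio of 0.418. The tetraspanins *Cd53* and *Cd82*, the highest of the list, had log2 fold changes of 0.65 and -0.57 on FPKM, and that of *Cd53* was near 0 on scaled counts.

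Of 22 ligand genes, 6 were measured and 16 had a mean under 1 FPKM, among them *Vcam1* (1.17 and 0.663 FPKM, a mean of 0.915). On FPKM 2 of the 6 measured genes and 14 of all 22 were higher in the USP21-ΔTreg library, against 63.4% of genes kept. The median log2 fold change of the measured genes was -0.77, and 0.31 without the filter on low values. *Lama5*, which encodes the laminin α5-chain, stood at 8.20 and 0.649 FPKM (log2 fold change -3.47), and *Icam1*, which encodes the main ligand of LFA-1, at 76.9 and 30.2 FPKM (-1.34). Both were at least 2-fold lower on scaled counts too. *Lrrc32*, whose product GARP presents the latent TGF-β that αv with β8 acts on, stood at 153 and 85.2 FPKM (-0.85). *Madcam1* had 7 WT fragments and 0 in the other library.

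Of 11 genes of selectins and rolling, 8 were measured and none was at least 2-fold apart on either scale. On FPKM 7.78% of all genes kept were at least 2-fold higher and 6.2% lower. *Selplg*, which encodes the P-selectin ligand PSGL-1, stood at 158 and 128 FPKM. Of 7 genes of integrin trafficking 6 were measured, and *Rab4a*, a GTPase of rapid recycling from endosomes, was the 1 at least 2-fold higher, at 1.60 and 6.58 FPKM (1.97). *Arf6* and *Acap1*, which act in recycling of β1-integrins, had log2 fold changes of 0.37 and 0.14 on FPKM. On scaled counts these were -0.03 and 0.09.

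**Figure D5:**
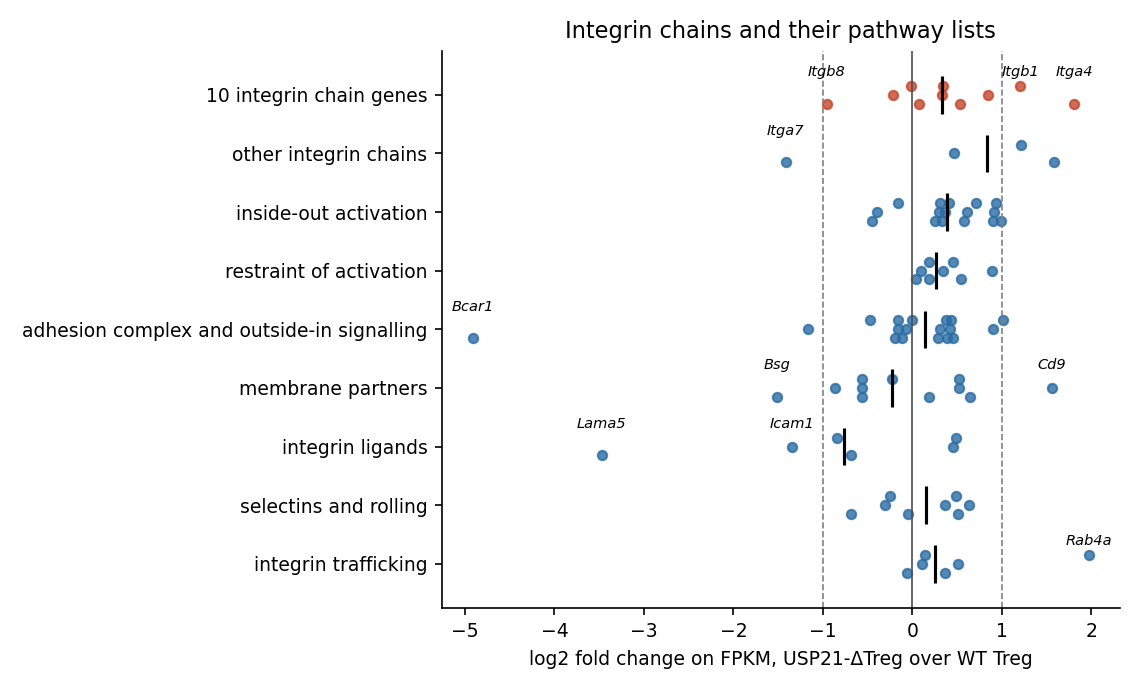
Log2 fold change on FPKM of the 10 integrin chain genes (red) and of the measured genes of 8 pathway lists (blue), with a black line at the median of each list and dashed lines at 2-fold. None of the 16 genes of inside-out activation passes 2-fold, while *Bcar1* (-4.91) and *Lama5* (-3.47) lie far to the left. Of all genes kept, 7.78% were at least 2-fold higher and 6.2% lower.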

How the data were processed

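The data are RNA-seq of 1 library of WT Treg and 1 of USP21-ΔTreg cells. Before deposit, the authors filtered the reads (ribosomal RNA, adaptors, short or poor reads), aligned them to mm10 by TopHat2 2.0.9 and quantified known genes by Cufflinks 2.1.1. The annotation version is not given in the sources used here. On the kits the sources differ: RNeasy and a stranded TruSeq kit in the methods, Trizol and another TruSeq kit in the labels. The deposited FPKM values are as the authors scaled them. The deposited estimated counts were scaled between libraries by the authors. The commonest count above 0 (1.03 in WT Treg and 0.918 in USP21-ΔTreg cells) was taken as 1 fragment, and 97.2% of nonzero counts of either library came out whole to within 0.02. How FPKM and counts came to differ in centre is not given in the sources used here.

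The calculations used numpy 2.4.6, pandas 2.3.3 and scipy 1.17.1 under Python 3.11.15, and the plots matplotlib 3.10.9. Genes with a mean of at least 1 FPKM were kept, 10948 of 16830, and 0.1 FPKM was added before log2. Of the symbols, 23 that had become dates were restored by Entrez identifier. Intervals of ratios are exact Clopper-Pearson, those of FPKM exact Poisson, and those of ratios between 2 genes log-normal. All cover counting error only, and fragments were not counted by molecular identifier. GENCODE M21 (GRCm38) gave gene positions, and, for 10738 genes kept, transcript length and GC content (longest transcript). The steps were tested on simulated libraries.

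The members and the 8 pathway and 7 marker lists were chosen with earlier results of these data known, and several lists hold genes shown before. Named genes were all 10 members, *Usp21* and *Foxp3*, up to 4 genes per pathway list with the largest difference past 2-fold, the 2 most abundant genes of each list, and the most abundant gene of each marker list. A gene that this rule names is not reported here. Other names (*Il2ra*, *Cd3d*, *Cd3e*, *Cd3g*, *Cd4*, *Ctla4*, *Ikzf2*, *Cerkl*, *Haspin*, *Itga2b*, *Itga3*, *Itgam*, *Itgax*, *Tln1*, *Fermt3*, *Cd47*, *Vcam1*, *Madcam1*, *Pf4*, *Ppbp*, *Cdh5*) were chosen after their values were seen. With 2 libraries a gene has 1 ratio, so no gene was named for a like pattern. Paralogous chains may share reads where their sequences are near-identical. Of the genes that overlap a member, only the protein-coding ones (*Cerkl* and *Haspin*) were named. *Itga6* also overlapped 4 genes and *Itgav* 2, all of them non-coding transcripts or pseudogenes. Their part in the values was not tested.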

Additional observations from a re-analysis of the deposited data

How the results depend on the processing

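No paired analysis was possible because there was a single library for WT Treg and for USP21-ΔTreg cells, and no library could be left out. The log2 fold change of *Itga4* lay between 1.35 (scaled counts) and 1.84 over 10 alternatives, at least 2-fold in each. *Itgb1* lay between 0.81 and 1.24 and was past 2-fold in 8 of them, and *Itgb8* between -1.33 and -0.91 and past 2-fold in 5. *Itgav* changed sign in 5 alternatives and *Itga6* in 1, neither of them past 2-fold, and the other 8 genes kept their sign in all 10. Of the 10, the settings without a filter and at a mean of at least 5 FPKM leave each gene's value unchanged, so these could not differ. Against 2 genes at least 2-fold higher, scaled counts, fragments scaled to library totals and a 3-fold limit each gave 1. Against 0 lower, median centring, a common upper quartile, scaled counts, fragments scaled to library totals, adjustment for GC content and length and a 1.5-fold limit each gave 1. The median of the 10 genes, 0.34, was 0.14 after median centring, 0.24 with a common upper quartile, 0.45 on fragments scaled to library totals and 0.50 adjusted for GC content and length. Of all genes, 852 were at least 2-fold higher and 679 lower. Those higher numbered 482 with 1 FPKM added, 1460 without a filter, 447 at a mean of at least 5 FPKM, 488 when median centred and 475 on scaled counts. At 1.5-fold 2506 were higher and 1326 lower, and at 3-fold 178 and 312. Medians and counts of the pathway lists moved past their limits (0.5 for a median, 1.5 times for a count) in 23 of 240 cases. The spread between libraries of a genotype could not be measured, and the intervals cover counting error only.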

Other observations

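The gap between the log2 fold change on FPKM and that on scaled counts differed among the integrin genes and lay between -0.03 and 0.46, with a median of 0.25 against 0.19 over all genes kept. It was 0.46 for *Itga4*, 0.41 for *Itgav*, 0.40 for *Itgb1* and 0.38 for *Itgb8*, whose longest transcripts had a GC content of 41.1%, 43.5%, 44.8% and 40.4%. It was -0.03 for *Itgb7*, 0.08 for *Itgal* and 0.09 for *Itgb2*, whose GC contents were 58.0%, 53.2% and 53.1%. The 10 transcripts had a median GC content of 50.1%, and the genes kept one of 49.4%. The genes share both libraries, so this is a description, and the cause of the gap was not tested. It moved *Itgb1* and *Itgb8* to opposite sides of the 2-fold limit on the 2 scales, while *Itga4* stayed beyond it on both.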
